A study of Homo sapiens with 2 samples.

Results

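In all, 10 genes of the Notch pathway were followed in HEK293T cells with a stable FKBP5 knockdown. They are the receptors NOTCH1, NOTCH2, NOTCH3 and NOTCH4, the ligands JAG1, JAG2 and DLL1, and the targets HES1, HES4 and HEY1. They were chosen as core parts of the pathway, and NOTCH3 and HES4 were selected on their high counts and CPM in these same samples, so levels are given as a description and were not tested. All 10 were found by symbol among the 60683 genes of the count table. HEK293T is a human embryonic kidney line that carries the SV40 large T antigen, and FKBP5 encodes an HSP90-binding immunophilin that restrains steroid receptors. The study asked which genes are expressed differently after short hairpin RNAs reduce FKBP5. Both of the samples carry the knockdown and make up 1 group of 2. Cells with a scrambled control were not analysed here, so no value below shows an effect of the knockdown. The labels do not say whether the samples came from separate cultures, how many hairpins were used or whether the line was 1 clone.

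Notch receptors are membrane proteins that are activated by ligands on a neighbouring cell. Ligand pulling exposes the receptor to the protease ADAM10 and then to gamma-secretase, which frees the intracellular domain. That domain enters the nucleus, joins the DNA-binding protein RBPJ and a Mastermind coactivator, and switches on genes such as the HES and HEY repressors. Where Notch is inactive, RBPJ recruits corepressors to the same genes. In the developing kidney the pathway is known for its part in patterning the nephron.

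Sample 1 held 9997706 counts and sample 2 held 21284648, so levels in sample 1 rest on fewer reads. FKBP5 itself had 41 and 77 counts, or 3.95 and 3.52 CPM (counts scaled to library size, not to gene length). Of 10 genes typical of HEK293 cells, 9 had a mean of at least 1 CPM, with the neurofilament gene NEFL at 305 and 289 CPM, and the kidney factor gene PAX8 had 1 and 10 counts. The 6 endothelial markers summed to 3.76 and 4.39 CPM, and the 6 blood cell markers to 7.61 and 8.19 CPM. Most of the blood cell sum came from CD4, with 4.53 and 4.39 CPM, and CD8A, with 2.99 and 2.88 CPM. CD3E, CD3D and CD2 had no count in sample 1 and 5, 1 and 4 counts in sample 2. The 6 mural cell markers summed to 54.0 and 55.8 CPM, of which CSPG4 alone made 42.3 and 44.9 CPM. These lists are given because NOTCH4 is typical of endothelium and NOTCH3 of mural cells, and their part in the values below was not tested.

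Among the receptors, NOTCH3, NOTCH2 and NOTCH1 were all well expressed and NOTCH4 was barely detected. NOTCH3 (ENSG00000074181, chromosome 19, 15159038 to 15200981, minus strand, GRCh38), a receptor best known from vascular smooth muscle, had 3076 and 7728 counts in samples 1 and 2. Its level was 296 CPM (95% exact Poisson interval 286 to 307) and 354 CPM (346 to 362), a mean of 325 ± 40.4 CPM (SD, n = 2). Sample 2 was the higher one and the counting intervals did not overlap. In bulk RNA, fewer cells that express a gene and less RNA per cell cannot be told apart, here and for every gene below. NOTCH2 (ENSG00000134250, chromosome 1, 119911553 to 120069626, minus strand), which acts in nephron formation, had 2944 and 6460 counts, or 284 and 296 CPM, a mean of 290 ± 8.38 CPM. Its intervals of 274 to 294 and 288 to 303 CPM overlapped. NOTCH1 (ENSG00000148400, chromosome 9, 136494433 to 136545786, minus strand), the receptor known from T-cell leukaemia, had 986 and 2061 counts, or 95.0 and 94.3 CPM, the closest agreement of the 10 genes. NOTCH4 (ENSG00000204301, chromosome 6, 32194843 to 32224067, minus strand), the endothelial receptor, had 19 and 54 counts. Its 1.83 CPM in sample 1 (1.10 to 2.86) and 2.47 CPM in sample 2 (1.86 to 3.22) could not be told apart by counting error.

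**Figure D1:**
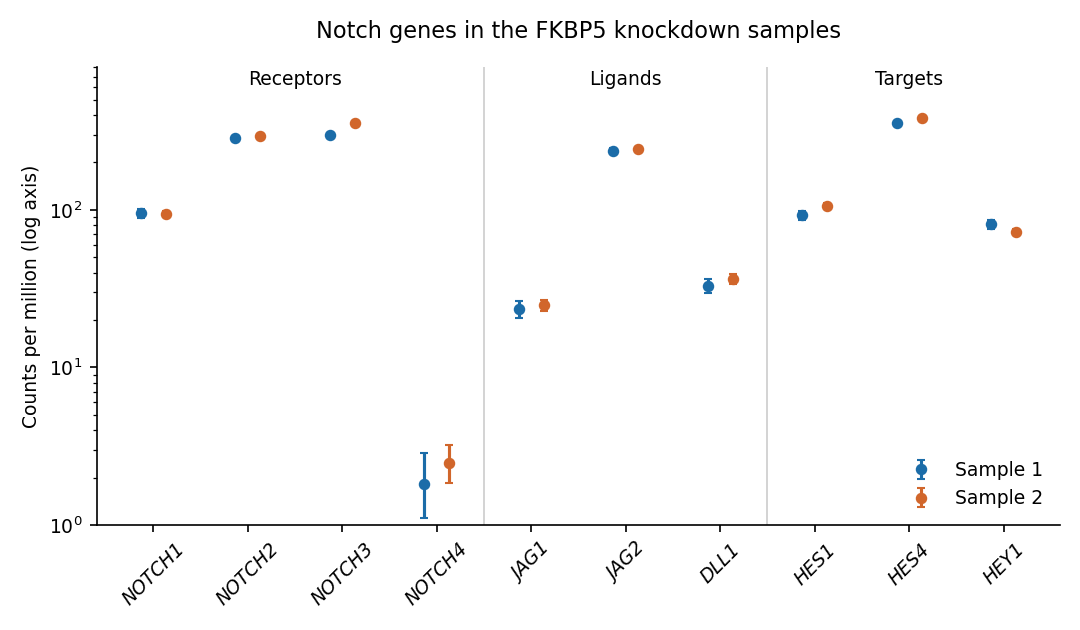
Deposited CPM of the 10 Notch genes (log axis) in sample 1 and sample 2 of the FKBP5 knockdown, with bars for the 95% exact Poisson interval of each count. Points of the same gene lie close together in all roles, and NOTCH4 sits lowest at 1.83 and 2.47 CPM.

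Levels can be compared between genes only after the length of the transcript is taken out, because a longer RNA yields more reads. The CPM were therefore divided by the length of the union of a gene's annotated exons in kilobases (CPM per kb). On this scale NOTCH3 had 31.6 in sample 1 and 37.6 in sample 2, NOTCH2 16.9 and 17.6, NOTCH1 9.16 and 9.09, and NOTCH4 0.188 and 0.253. NOTCH3 therefore made 54.6% of the receptor total in sample 1 and 58.3% in sample 2, and its level was 1.87 and 2.14 times that of NOTCH2. Lengths taken from the longest transcript lowered that ratio to 1.37 and 1.57, since NOTCH2 has 16807 bases of exon in all and a longest transcript of 11389 bases. The order NOTCH3, NOTCH2, NOTCH1, NOTCH4 was the same with both lengths and in both samples. Without any length correction the share of receptor counts held by NOTCH3 was 43.8% (Wilson 95% interval 42.6 to 44.9%) in sample 1, and in sample 2 it was 47.4% (46.6 to 48.2%).

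The NOTCH2 value carries an uncertainty that the other receptors lack. Copies of its 5' part exist as the NOTCH2NL genes, human-specific partial duplicates that are active in cortical progenitors. Only 76.6% of the 50-base stretches in NOTCH2 transcripts occurred in no other gene's transcript in GENCODE 29, against 100% for NOTCH1, 99.6% for NOTCH3 and 99.0% for NOTCH4. NOTCH2NLA shared 20.9% of the NOTCH2 stretches and had 5 counts in each sample. NBPF19 shared 21.6% and had 1 and 9 counts, NBPF14 shared 2.77% and had 138 and 309 counts, and NBPF26 shared 2.21% and had 109 and 261 counts. NOTCH2NLC, which is not in GENCODE 29 and so was not part of that comparison, had 20 and 38 counts, and NOTCH2NLB and NOTCH2NLR had none. The sources used here do not say how reads matching more than 1 gene were counted, and reads lost from NOTCH2 were not tested for. NOTCH4 shares 98 exonic bases with GPSM3 on the same strand, which had 16 and 40 counts.

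JAG2 was the main ligand transcript. JAG2 (ENSG00000184916, chromosome 14, 105140981 to 105168824, minus strand) had 2453 and 5324 counts, or 236 and 244 CPM (intervals 227 to 246 and 237 to 250), a mean of 240 ± 5.09 CPM. DLL1 (ENSG00000198719, chromosome 6, 170282206 to 170306565, minus strand), a Delta ligand of somite and neural development, had 342 and 796 counts, or 33.0 and 36.4 CPM. JAG1 (ENSG00000101384, chromosome 20, 10637684 to 10673999, minus strand), the ligand mutated in Alagille syndrome, had 242 and 542 counts, or 23.3 and 24.8 CPM. In all 3 ligands the samples' counting intervals overlapped.

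Per kilobase, JAG2 had 37.0 and 38.1 CPM per kb, DLL1 10.2 and 11.3, and JAG1 2.51 and 2.67. The Jagged genes, which share one protein family, were thus far apart, with JAG2 at 14.7 and 14.3 times the level of JAG1, or 10.3 times in sample 1 with the longest transcripts. The other Delta genes were lower than DLL1. DLL3, a family member that does not activate Notch in neighbouring cells, had 5.30 and 5.44 CPM per kb, and DLL4, the endothelial ligand, 0.607 and 0.586. Over these 5 ligands JAG2 made 66.5% of the total in sample 1 and 65.6% in sample 2. AL512356.1, a gene annotated on the same strand as JAG2, covers 7.33% of its exonic bases and had no count, and whether JAG2 reads were set aside there was not tested. An antisense gene, AL050403.2, covers 0.850% of JAG1 and had 0 and 4 counts.

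The targets were led by HES4. HES4 (ENSG00000188290, chromosome 1, 998962 to 1000172, minus strand), a HES repressor gene that mice lack, had 3673 and 8360 counts, which gave 354 CPM (343 to 366) and 383 CPM (374 to 391), a mean of 368 ± 20.2 CPM, with sample 2 higher and no overlap of the intervals. HES1 (ENSG00000114315, chromosome 3, 194136145 to 194138732, plus strand), the classic Notch target whose protein represses its own gene, had 960 and 2307 counts. Its 92.5 CPM (86.8 to 98.6) and 106 CPM (101 to 110) also did not overlap. HEY1 (ENSG00000164683, chromosome 8, 79764010 to 79767863, minus strand), a repressor known from heart and vessel development, had 841 and 1581 counts, or 81.1 CPM (75.7 to 86.7) and 72.3 CPM (68.8 to 76.0). It was the one target with the higher value in sample 1, and its intervals overlapped only at their ends.

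HES4 has a short transcript, with 1118 exonic bases, so its lead grew once length was taken out. It had 317 CPM per kb in sample 1 and 342 in sample 2, which was 7.06 and 6.68 times HES1 and 12.6 and 15.3 times HEY1. HES1 had 44.9 and 51.2 CPM per kb and HEY1 25.1 and 22.4. Among 15436 genes that averaged 1 CPM or more and had a known length, 99.7% lay below HES4 per kilobase and 95.1% below HES1.

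The rest of the HES and HEY family was ranked on the same scale. HES6, a gene whose protein counteracts HES1, had 52.3 and 55.1 CPM per kb and HES7, known from the somite clock, 40.4 and 44.2, both near HES1. HEY2 had 15.5 and 14.6, HES5 8.93 and 11.2, HEYL 4.98 and 5.72, and HES2 0.838 and 0.753 CPM per kb. HES3 had 1 count in each sample. Over all 10 HES and HEY genes, HES4 made 62.1% of the total per kilobase in sample 1 and 62.5% in sample 2, or 59.0% and 59.5% with the longest transcripts.

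**Figure D2:**
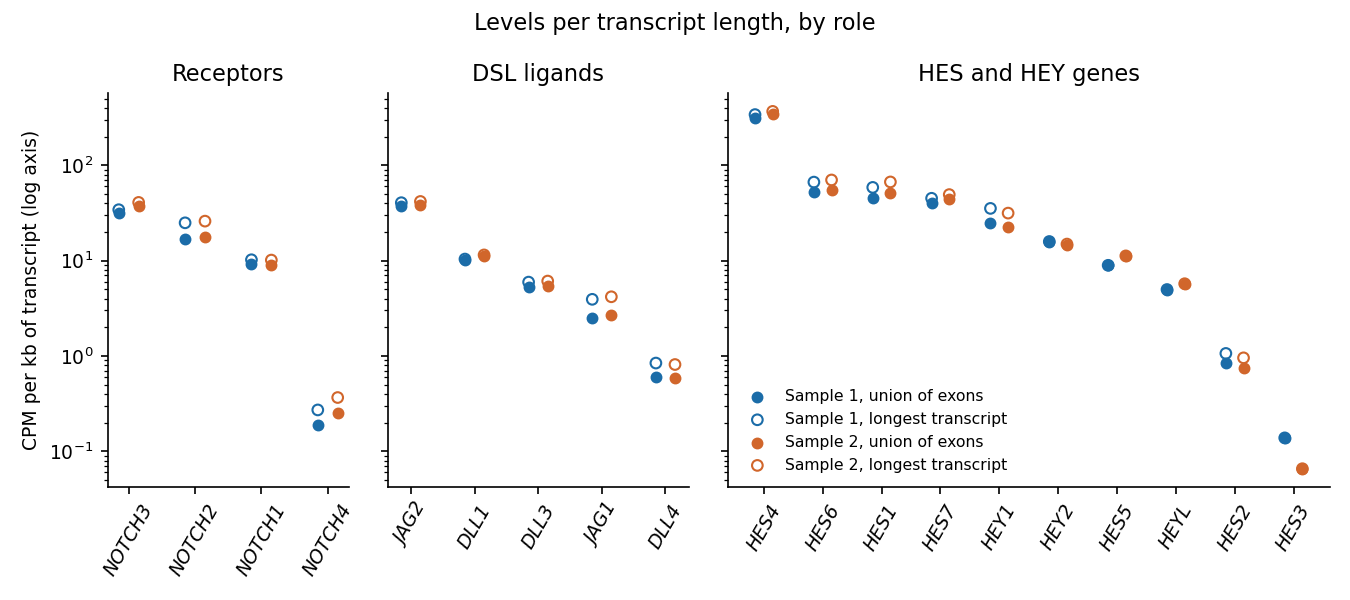
CPM per kb of transcript (log axis) for the receptors, the ligands and the HES and HEY genes in both samples, with filled points for the union of exons and open points for the longest transcript. HES4 stands above every other gene shown, at 317 and 342 CPM per kb, and the filled and open points of NOTCH2 and JAG1 are the widest apart among receptors and ligands.

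The promoters of HES1 and HES4 are shown because they are the more abundant of the 3 targets followed here per kilobase and hold the letters that RBPJ is known to bind. Motifs were searched from 250 bases before to 50 bases after the transcript start (RefSeq, GRCh38.p14). The 250 bases before the start are printed here, each promoter 5' to 3' on the gene's strand with each match to TGGGAA, the core of the RBPJ motif, in capitals. HES1 is chr3:194135898-194136147 on the plus strand and HES4 chr1:1000098-1000347 on the minus strand, where the GENCODE 29 gene model of HES4 already begins at 1000172.
HES1: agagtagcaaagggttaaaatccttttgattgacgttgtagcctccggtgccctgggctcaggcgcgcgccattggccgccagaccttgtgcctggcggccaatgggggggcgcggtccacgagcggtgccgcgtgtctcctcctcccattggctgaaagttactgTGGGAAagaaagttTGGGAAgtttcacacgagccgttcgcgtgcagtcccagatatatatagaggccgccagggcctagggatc
HES4: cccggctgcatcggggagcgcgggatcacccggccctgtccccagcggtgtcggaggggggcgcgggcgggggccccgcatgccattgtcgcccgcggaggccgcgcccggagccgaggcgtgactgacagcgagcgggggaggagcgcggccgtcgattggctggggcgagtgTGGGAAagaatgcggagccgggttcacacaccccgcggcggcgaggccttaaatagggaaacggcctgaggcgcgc

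HES1 held 2 matches to the core, at bases -84 to -79 and -70 to -65 counted from the start (base -1 is the last before it), and HES4 held 1 at -76 to -71. HES5 also held a match on its own strand at -80 to -75, so all 3 carried one at a like distance from the RefSeq start. These 3 were set side by side because they held a match there. On their own strands HEYL held one at -99 to -94 and HEY2 one at -3 to 3. By the GENCODE 29 start the HES4 match, at 1000168 to 1000173, lies on the transcript start itself, while the HES1 matches lie at -81 to -76 and -67 to -62. The windows of 15 bases on either side of the HES1, HES4 and HES5 matches (for HES1, of the one farther from the start) show how far the likeness goes, again with the core in capitals.
HES1: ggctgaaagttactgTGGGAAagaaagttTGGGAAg
HES4: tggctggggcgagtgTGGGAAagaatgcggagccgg
HES5: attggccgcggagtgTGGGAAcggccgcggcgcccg

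The longest run of letters shared by the HES1 and HES4 promoters was 12 bases long and lay on this match, as tgTGGGAAagaa. In HES4 and HES5 the longest shared run was 11 bases, gagtgTGGGAA, also on the match. HES1 and HES5 shared 12 bases at most, gccattggccgc, which lay elsewhere. Runs shared by other pairs of promoters were not measured, so whether these lengths are unusual was not tested. Searched on both strands, TGGGAA occurred in 24.0% of 35116 promoters of this length (3.80% with 2 or more), and GTGGGAA, which contains it, in 6.25%. HES1, HES4, HES5, HEY2 and HEYL each held both. HES3 held the core alone, and HES2, HES6 and HES7 held neither in this window. HES6 and HES7, named above for levels near HES1, were among those without a match. NRARP, a feedback inhibitor of Notch signalling with 57.7 and 61.3 CPM per kb, also held none.

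HES1 also held 4 matches to the N box CACNAG and 2 to CACGCG, letters that HES proteins are known to bind, whereas HES4 held none of either. CACNAG occurred in 38.0% and CACGCG in 11.4% of promoters, again on both strands. With 2 or more matches these shares were 8.94% and 2.04%. The promoters of NOTCH1, NOTCH2, NOTCH3, NOTCH4, JAG1 and JAG2 held no TGGGAA. The E box CACGTG occurred in none of the promoters looked at, against 7.26% of all promoters. HES4 was richer in GC than HES1, with 75.7% GC and 44 CpG against 59.0% and 21, where the median promoter had 58.7% and 14. Promoters of DLL1 and HEY1 were not used here. These matches describe letters and show no binding in these cells.

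**Figure D3:**
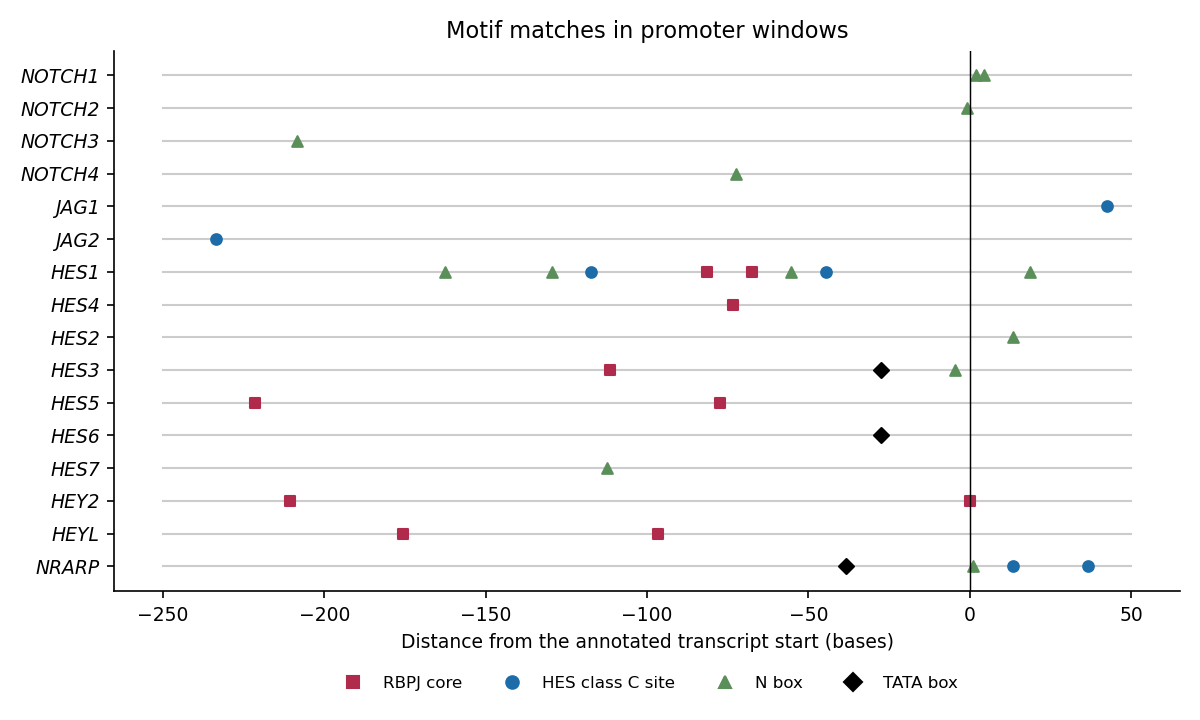
Matches to the RBPJ core, the HES class C site CACGCG, the N box and TATAAA on either strand, by distance from the RefSeq transcript start (bases), in the promoters of 8 of the 10 Notch genes, of the other HES and HEY genes and of NRARP. The red squares of HES1 and HES4, and one of the red squares of HES5, lie between -84 and -65, and HES1 is the only promoter shown with 4 N boxes.

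Placed in 1 order per kilobase, the 10 genes ran HES4, HES1, JAG2, NOTCH3, HEY1, NOTCH2, DLL1, NOTCH1, JAG1, NOTCH4. JAG2 and NOTCH3 had ranges over the samples that overlapped, with ratios of 1.17 in sample 1 and 1.01 in sample 2. By counting error they were apart in sample 1 (35.5 to 38.5 against 30.5 to 32.7 CPM per kb) and overlapped in sample 2. All other neighbours had ranges over the samples that did not overlap, though DLL1 and NOTCH1 overlapped by counting error in sample 1 (9.16 to 11.4 against 8.60 to 9.75 CPM per kb). With the longest transcripts the order was the same, but NOTCH3 and HEY1 then overlapped as well. Summed per kilobase, the 4 receptors came to 57.8 and 64.6 CPM per kb and the 3 ligands followed here to 49.7 and 52.0. The receptor total was thus 1.16 and 1.24 times that of these 3 ligands. With DLL3 and DLL4 added, the ligands came to 55.6 and 58.1 CPM per kb, closer to the receptor total.

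The 2 libraries were then compared gene by gene. A 2-sided exact binomial test asked whether a gene's share of reads differed between the libraries, with Benjamini-Hochberg adjustment over all 15530 genes that averaged 1 CPM or more. It compares these libraries and not conditions, and it holds counting error only, while over all these genes the mean squared difference was 4.68 times what counting error alone gives. All 10 Notch genes were tested and 3 passed at an adjusted p under 0.05, where 8.97% of all genes did. All 3 were higher in sample 2, a direction called in 4.41% of all genes, and none was lower, a direction called in 4.56%. The test calls abundant genes more readily: among genes of 100 to 500 CPM, 24.1% passed, 9.22% as higher, and 2 of the 3 lie in that range. Among genes of 50 to 100 CPM, where HES1 lies, 12.4% passed, 5.74% as higher.

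Of these 3, NOTCH3 differed most, at 1.19 times its sample 1 level in sample 2 (95% exact interval 1.14 to 1.24, exact binomial test, adjusted p = 2.34e-14). HES1 was 1.14 times as high (1.06 to 1.23, exact binomial test, adjusted p = 0.0112), and HES4 1.08 times (1.04 to 1.12, exact binomial test, adjusted p = 0.00270). HEY1, at 0.893 times (0.820 to 0.972), did not pass with the deposited scaling (exact binomial test, adjusted p = 0.0730) but passed as lower with column totals (0.0420) and with TMM factors (0.0488). NOTCH2 had a ratio of 1.04 (0.997 to 1.09), JAG2 1.03 (0.982 to 1.08), JAG1 1.06 (0.912 to 1.24), DLL1 1.11 (0.972 to 1.26) and NOTCH1 0.992 (0.919 to 1.07), none past the test. For NOTCH4 the interval of 0.787 to 2.41 leaves the ratio of 1.35 undetermined at this depth.

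On the log2 scale of CPM + 1, the 10 genes had a median ratio of 0.10 and 8 of them were above 0, beside a median of 0.01 and 53.1% above 0 for all genes tested. NOTCH3 had 0.25, where genes of 100 to 500 CPM had an SD of 0.11. When the difference between the samples was itself taken as replicate variation (edgeR's exact test with a common coefficient of variation of 5.62%), 0 of the 10 passed and 13 of 15530 genes did, with 1 of the 10 at an unadjusted p under 0.05. After a fit on GC content and length over all genes tested, NOTCH3 had a log2 ratio of 0.15, HES4 0.04 and HES1 0.18. The median of the 10 was then 0.04, beside -0.02 for all genes tested. NOTCH2 at -0.03 and JAG2 at -0.04 then changed sign, which left 6 of the 10 above 0.

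**Figure D4:**
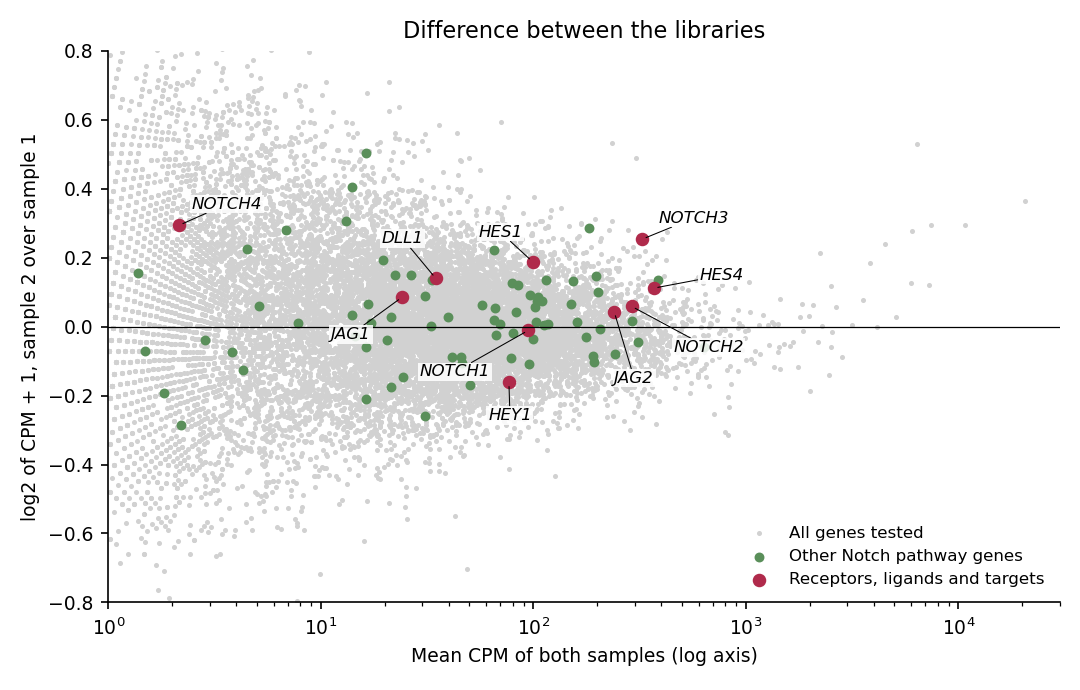
Log2 of CPM + 1 in sample 2 over sample 1 against the mean CPM (log axis) for all 15530 genes tested (53 lie outside the axis of 0.8 either way), with the 10 Notch genes and the other pathway genes marked. NOTCH3 lies at 0.25 near the upper edge of the genes at its level, and HEY1 at -0.16 below the line.

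The other genes of the pathway were read from 9 lists of 75 genes in all, ordered by their step. Of these, 73 averaged 1 CPM or more and were tested, and 7 passed, all higher in sample 2, which is 7 of 73 beside 8.97% of all genes. Of all genes, 4.41% were called higher and 4.56% lower. The direction depended on scaling: with column totals or TMM factors, 5 pathway genes were called higher and 3 lower. Their median log2 ratio was 0.01, the same as for all genes tested. Every list had at least 3 members above 1 CPM.

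Genes that act on the ligands and on receptor cleavage held 3 of the 7, and calls were not compared between steps. Of 6 genes for ligand endocytosis, 2 were higher in sample 2: MIB1, the ubiquitin ligase that signal-sending cells need, with 165 and 201 CPM (exact binomial test, adjusted p = 3.73e-10), and NEURL1B, another ubiquitin ligase, with 13.3 and 19.3 CPM (adjusted p = 0.00331, same exact test). The epsin gene EPN1 had 315 and 305 CPM. Of 9 genes for receptor cleavage, FURIN, the protease that cuts the receptor in the Golgi, was higher in sample 2, with 186 and 206 CPM (exact binomial test, adjusted p = 0.00392). MIB1 and FURIN averaged 100 to 500 CPM, where 24.1% of all genes passed, and NEURL1B 10 to 50 CPM, where 6.53% did. The gamma-secretase gene APH1A had 178 and 174 CPM, and PSENEN, for its smallest subunit, only 1.54 and 1.42 CPM. None of 4 other ligand genes passed, with DLK2 at 14.6 and 14.4 CPM, DLL3 at 13.9 and 14.2 CPM and DLK1 with 1 count in all.

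None of the 6 receptor glycosylation genes passed. POFUT1, which adds fucose to the receptor's EGF repeats, had 102 and 103 CPM, and among the Fringe genes that extend this sugar RFNG had 65.2 and 66.0 CPM against 3.95 and 3.71 CPM for LFNG and 2.02 and 1.65 CPM for MFNG. None of the 7 genes of the activator complex passed either. RBPJ had 116 and 117 CPM, MAML1 101 and 106 CPM, EP300 205 and 204 CPM and CREBBP 197 and 186 CPM.

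Among the 15 corepressor genes, the Groucho gene TLE2 was higher in sample 2, with 60.1 and 70.3 CPM (exact binomial test, adjusted p = 0.0159). SPEN, the scaffold that ties RBPJ to corepressors, had 647 and 621 CPM and did not pass (adjusted p = 0.0548, same exact test), but it passed as lower with column totals (0.00896), with TMM factors (0.0140) and among genes of at least 5 CPM (0.0440). Of 13 genes for receptor turnover, DTX3L, a Deltex-family ubiquitin ligase, was higher in sample 2, with 11.9 and 16.0 CPM (exact binomial test, adjusted p = 0.0433). It did not pass with column totals (0.0561), with TMM factors (0.0512) or when every gene with a count was tested (0.111). NUMBL had 93.2 and 99.4 CPM and NUMB 80.9 and 88.0 CPM. None of the 7 other HES and HEY genes was called, 6 of them tested, with HES6 at 107 and 112 CPM and HES7 at 75.5 and 82.5 CPM. Of 8 other genes that Notch is known to induce, the growth factor receptor gene IGF1R was higher in sample 2, with 146 and 160 CPM (exact binomial test, adjusted p = 0.0339), a call that ended with column totals (0.0707), with TMM factors (0.0615) and with every gene with a count tested (0.0883). The cyclin gene CCND1 had 160 and 161 CPM. NRARP, named after its values were seen, had 102 and 108 CPM.

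**Figure D5:**
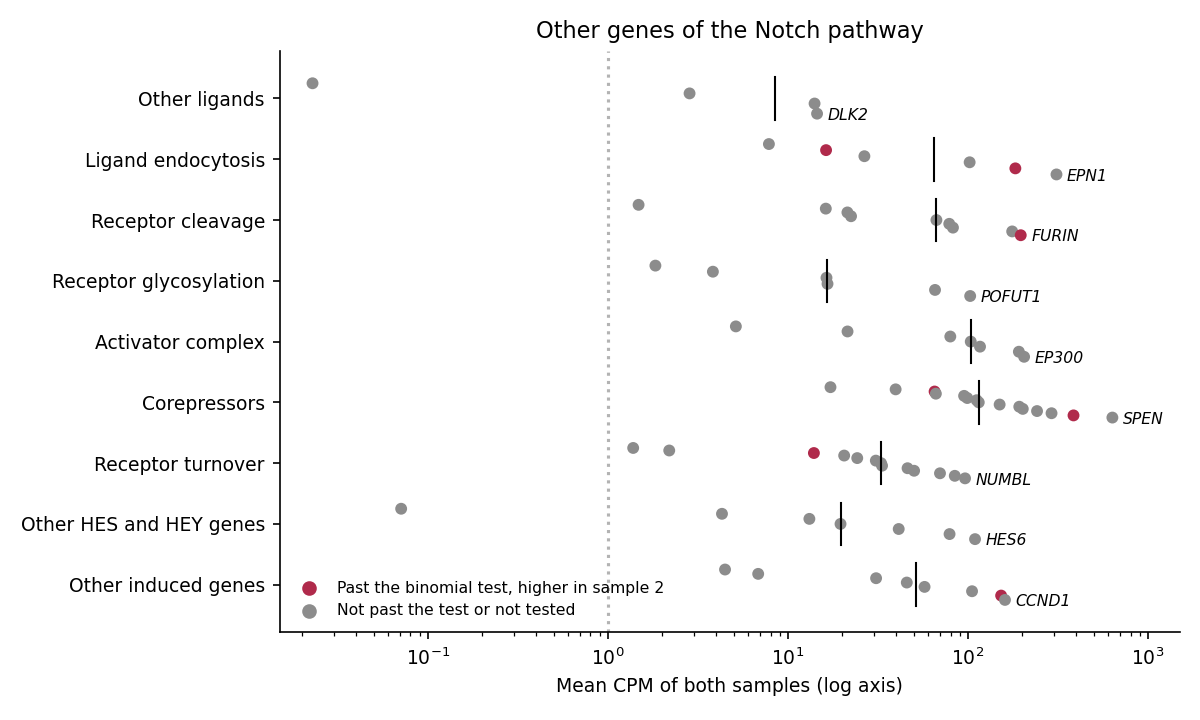
Mean CPM of both samples (log axis) of 75 other Notch pathway genes by list, with a black bar at each list's median and red points for the 7 genes past the binomial test, all higher in sample 2. The dotted line is 1 CPM, and only DLK1 and HES3 lie below it.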

How the data were processed

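Total RNA was measured by directional RNA-seq in 2 samples of 1 group. The deposited count table gives raw whole-number counts for each Ensembl ID. The deposited CPM are those counts times 1 constant per library: 100% of values gave whole reads within 1e-06. STAR 2.7.7a, edgeR and GRCh38 are named in the submitters' processing notes. Counting program, strand setting, multi-gene reads and annotation: not given in the sources used here. A symbol was matched to 99.5% of IDs. Coordinates and lengths came from GENCODE 29, of the same build GRCh38, which held 96.4% of them. Depth is the column total. The library sizes behind the CPM were larger than these totals by 3.78% in sample 1 and 2.68% in sample 2, and on that scale the floor of 3 counts is 0.289 CPM in sample 1 and 0.137 CPM in sample 2. Intervals and floors cover counting error only.

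Members and lists were chosen with earlier results of these data known. Named genes are all members, the FKBP5 gene, the 2 genes with the highest mean CPM of each pathway list, those past the test, those with no count in both samples, genes overlapping a member and the NOTCH2NL copies; others appear in comparisons within their family or step and were added after their values were seen. The values of 1 pathway gene that this rule names are not reported here. With 1 group edgeR's quasi-likelihood test could not be run, so the exact binomial test was used and tested on simulated data. P-values measure only the difference between these libraries, which may be technical. Ratios use CPM + 1. The tools were Python 3.11.15, pandas 2.3.3, scipy 1.17.1, statsmodels 0.14.6, R 4.3.3 and edgeR 4.0.16. Alternatives were other scaling, filters, pseudocount, error model, GC and length correction, transcript length and leaving out each sample.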

Additional observations from a re-analysis of the deposited data

How the results depend on the processing

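No paired analysis was possible because all samples belong to 1 group. The 3 Notch genes past the binomial test numbered 3 to 4 under the other scalings and filters, with HEY1 added under column totals and TMM, and 0 with edgeR's exact test at the common dispersion, where the adjusted p was 0.80 for NOTCH3, 0.972 for HES1 and 1 for HES4. The 7 other pathway genes became 5 to 9 under the other scalings and filters and 0 with that edgeR test, where 3 had an unadjusted p under 0.05. That edgeR test takes the difference between these same samples as its replicate variation, so few genes can pass. It is no independent check of the calls. The share of all genes called moved too, from 8.97% to 9.64% with column totals and 9.54% with TMM factors. Among genes of at least 5 CPM, where 9 pathway genes were called, it was 12.4%. With every gene with a count tested, where 5 were called, it was 2.35%, and with the edgeR test 0.0837%. With column totals or TMM factors 5 of the 8 then called were higher in sample 2 and 3 lower, against 7 and 0. The median log2 ratio of the members stayed between 0.04 (GC and length) and 0.10, where all genes tested had -0.02 and 0.01. Mean shares within a role, at first per kilobase of exon union, moved with length: with the longest transcript NOTCH2 had 34.7%, NOTCH3 51.0%, NOTCH4 0.432%, JAG1 7.22%, DLL1 19.5%, HES1 13.9%, HES4 78.6% and HEY1 7.44%. With no length correction NOTCH1 had 13.3%, NOTCH2 40.8%, NOTCH3 45.6%, NOTCH4 0.301%, JAG1 8.05%, JAG2 80.3%, DLL1 11.6%, HES1 18.2%, HES4 67.7% and HEY1 14.1%. Leaving out either sample moved each level and share by less than 1 SD, as it must with 2 samples. Depth limits NOTCH4 most.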
